A study of Oryctolagus cuniculus with 12 samples.

Results

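The genes described here are those of coagulation and plasminogen activation that act at the cell surface: the plasminogen activators PLAU and PLAT, the urokinase receptor PLAUR, the activator inhibitors SERPINB2 and SERPINE2, tissue factor (F3), its inhibitors TFPI and TFPI2, and thrombomodulin (THBD). They were chosen by symbol from a list of 9 genes. A row with a matching symbol was found for 8 of the 9 among 20566 genes, and all 8 passed the filter on low counts and were tested. TFPI2 was not analysed here.

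RNA was sequenced from the conjunctiva of female Japanese white rabbits after trabeculectomy (TL), a glaucoma operation in which aqueous humor is led out of the eye under the conjunctiva, where it lifts a filtering bleb. The right eye was operated on with mitomycin C, an alkylating agent that slows scarring, and the operated eyes were also given betamethasone and an antibiotic ointment. Bleb conjunctiva was taken at 3 hours (TL3h), 3 days (TL3d) or 14 days (TL14d), with 3 libraries a group, and conjunctiva of the left eye that was not operated on gave 3 control libraries. All animals were of the same strain, sex and age range. A control eye shared its animal with an operated eye, so it is no tissue of an untreated animal, and which control eye belonged to which operated eye is not stated in the sources used here. The time after surgery at which control tissue was taken is not stated either, so the controls may not match any time point.

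Bleeding in a wound brings plasma factor VII into contact with tissue factor, a membrane protein of epithelial and perivascular cells, and this contact starts the cascade that makes thrombin and fibrin. TFPI blocks the tissue factor complex, and thrombomodulin, best known from endothelium, turns thrombin toward activation of protein C. Fibrin is later removed by plasmin, which urokinase (PLAU, held at the cell surface by PLAUR) and tissue-type activator (PLAT) cut from plasminogen. The serpins SERPINB2 and SERPINE2 inhibit these activators, and SERPINE2 (protease nexin 1) inhibits thrombin too. After filtration surgery this system is of interest because fibrin clots and scarring can close a bleb.

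The libraries held 27111348 to 38591425 estimated counts. Levels below are CPM, counts scaled to a common library size, on a library size scaled by TMM, a normalization that assumes most genes do not change, and the scaling factors were 0.77 to 0.78 at TL3h and 1.03 to 1.13 in the other groups. A gene was called where the adjusted p of edgeR's quasi-likelihood test over 14835 genes was under 0.05, and this q-value is written as adjusted p. Markers of conjunctival epithelium, which set the identity of the tissue, were above 3 counts in every library for 7 of 9 listed genes, and their summed level was 6578 to 18384 CPM. Control replicate 3, TL14d replicate 1 and TL3d replicate 3 stood apart from their groups. Control replicate 3 was the highest control library in 7 of the 8 genes, and its summed neutrophil markers were at 82.4 CPM against 3.49 and 8.43 CPM in the other control libraries. TL14d replicate 1 was the lowest TL14d library in 5 of the 8 genes, and its summed neutrophil markers were at 3.33 CPM. TL3d replicate 3 was the lowest TL3d library in 5 of the 8 genes and the highest in the other 3 (PLAUR, TFPI and THBD), and its summed neutrophil markers were at 126 CPM against 739 and 613 CPM in the other TL3d libraries. Other markers differed as well. Fibroblast markers summed to 53820 CPM in control replicate 3, against 8766 and 24471 CPM in the other controls. In TL3d replicate 3 they were at 45779 CPM, against 1190 and 8785 CPM. Epithelial markers of that library were at 7912 CPM, against 18384 and 17517 CPM. Skeletal muscle markers summed to 316 CPM in control replicate 2 and 385 CPM in TL3d replicate 3, and to at most 8.53 CPM in the other libraries. Counts without control replicate 3 and TL14d replicate 1, and without these and TL3d replicate 3, are given beside the results. These alternatives were chosen after seeing the data, including the levels of the 8 genes. The study speaks of eyes as its replicates, and since only right eyes were operated on, the libraries of an operated group stand for separate rabbits. For the control libraries the number of rabbits is not stated in the sources used here.

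Compared with control, 7 of the 8 genes rose at TL3h, 3 of 8 at TL3d and 0 of 8 at TL14d. Over all genes tested, 23.2% were called higher at TL3h, 10.6% were called higher at TL3d, and 0% were called at TL14d. The operated libraries were all above the control libraries for 7 of the 8 genes at TL3h, as for 28.9% of all genes tested, and for 5 of the 8 at TL3d, as for 23.8% of all genes tested. The median log2 fold change of the 8 genes was 3.36 at TL3h, 1.73 at TL3d and 1.13 at TL14d, against 0.02, -0.00 and 0.02 over all genes tested. All 8 genes had their highest group mean at TL3h. Without control replicate 3 and TL14d replicate 1, 5 of the 8 genes were called higher at TL3d (SERPINE2 and SERPINB2 in addition) and 2 at TL14d (SERPINE2 and PLAUR), where 14.4% and 4.49% of all genes tested were called higher. Without TL3d replicate 3 as well, 5 of 8 were called higher at TL3d and 4 at TL14d (SERPINE2, SERPINB2, PLAUR and PLAT), against 14.5% and 5.58% of all genes tested. Without TL3d replicate 3 alone, 3 of 8 were called higher at TL3d and 0 at TL14d, against 9.05% and 0% of all genes tested. SERPINE2, SERPINB2, PLAUR and PLAT had their highest control level in control replicate 3 and their lowest TL14d level in TL14d replicate 1. Leaving out these libraries raises their differences from control by construction, so the added calls are no independent evidence. TL14d replicate 2, the highest of its group in 6 of the 8 genes, was kept. The 3 comparisons share the same control libraries. In tissue samples, more cells of a type and more RNA per cell cannot be told apart.

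**Figure D1:**
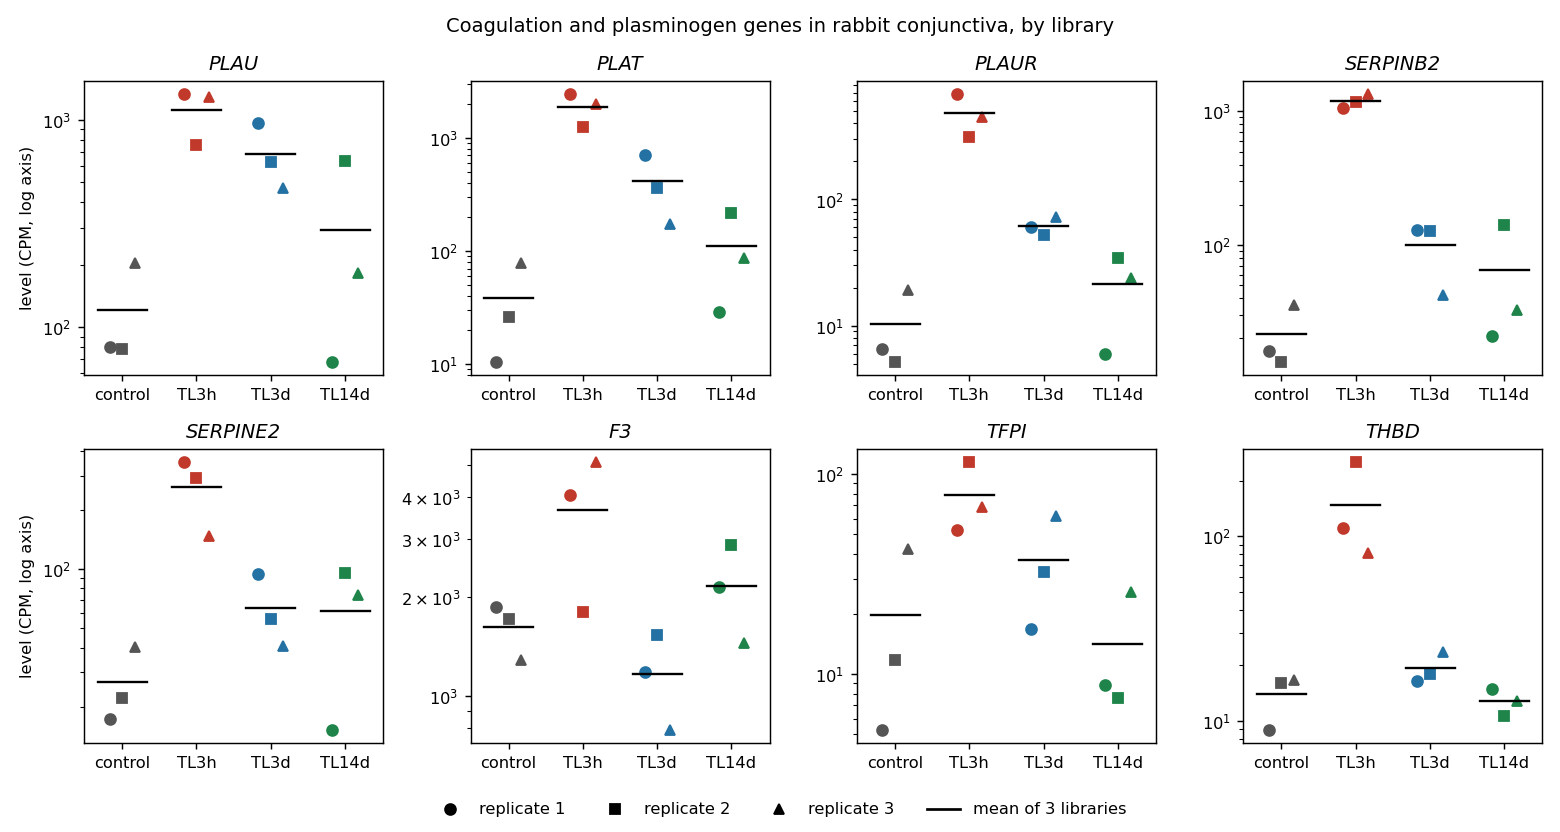
Level of each of the 8 genes in each of the 12 libraries (CPM, log axis), with a symbol per replicate number and a bar at the mean of 3 libraries. In 7 of the 8 panels the 3 TL3h libraries are above all 3 control libraries, and in the F3 panel TL3h replicate 2 (1799 CPM) lies below control replicate 1 (1862 CPM).

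Both plasminogen activators rose within 3 hours and were still higher on day 3. PLAU, urokinase, was measured at 80.6, 78.8 and 205 CPM in control replicates 1 to 3, at 1326, 753 and 1282 CPM at TL3h, at 963, 627 and 467 CPM at TL3d, and at 68.0, 633 and 182 CPM at TL14d. The TL3h and TL3d libraries were all above the controls, whereas of the TL14d libraries only replicate 2 was above the control range. The log2 fold change was 3.20 at TL3h (SE 0.76, adjusted p = 0.00638), which is 9.22-fold, and 2.50 at TL3d (SE 0.73, adjusted p = 0.0434). PLAU at TL14d differed from control by 1.28 on the log2 scale (95% interval -0.29 to 2.85, adjusted p = 0.565), and by 0.040 without TL14d replicate 2. PLAU had kept 61.2% of its TL3h mean at TL3d, the highest share among the 8 genes, and its fall from TL3h to TL3d did not pass the test (log2 fold change -0.71, 95% interval -2.26 to 0.84, adjusted p = 0.45).

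PLAT, tissue-type plasminogen activator, changed over a wider range. It stood at 10.4, 26.0 and 78.1 CPM in the control libraries, at 2427, 1246 and 1994 CPM at TL3h, at 701, 363 and 173 CPM at TL3d, and at 28.8, 217 and 87.4 CPM at TL14d. Again, every TL3h and TL3d library exceeded every control, and TL14d replicate 1 lay within the control range. PLAT rose 49.5-fold at TL3h (log2 fold change 5.63, SE 1.008, adjusted p = 0.00144) and had a log2 fold change of 3.43 at TL3d (SE 0.91, adjusted p = 0.0313). Without control replicate 3, its highest control library, the log2 fold change was 6.64 at TL3h and 4.49 at TL3d, the highest values with any 1 library left out, and the lowest were 5.18 (without control replicate 1) and 2.81 (without TL3d replicate 1). Its TL3d mean was 21.8% of its TL3h mean, and the TL3d libraries were all below the TL3h libraries, but the difference between the time points missed the threshold (log2 fold change -2.20, SE 0.86, adjusted p = 0.0693). It was called under 6 of 20 alternatives: DESeq2 (adjusted p = 0.0217), the compared libraries alone (0.0216), without control replicate 3 (0.0488), without TL14d replicate 1 (0.046), without both (0.0208), and without these and TL3d replicate 3 (0.042). Over all alternatives its adjusted p was between 0.0208 and 0.171. With 1 library left out, this log2 fold change ran from -2.81 (without TL3d replicate 1) to -1.82 (without TL3d replicate 3).

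PLAUR, the receptor that holds urokinase at the cell surface, was at 6.57, 5.15 and 19.1 CPM in control conjunctiva, at 679.6, 314 and 450.1 CPM at TL3h, at 60.3, 52.1 and 72.9 CPM at TL3d, and at 5.95, 34.1 and 23.9 CPM at TL14d. The control, TL3d and TL3h libraries formed separate ranges in that order, and those of TL14d overlapped the controls. The log2 fold change was 5.55 at TL3h (SE 0.75, adjusted p = 0.000305), or 46.9-fold, and 2.59 at TL3d (SE 0.66, adjusted p = 0.0275). Without control replicate 3 these were 6.30 and 3.38. PLAUR fell between TL3h and TL3d by 2.96 on the log2 scale (SE 0.66, adjusted p = 0.00621).

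The calls at TL3d depended on single libraries. PLAU, PLAUR and PLAT all lost their call, leaving 0 of 8 genes, when control replicate 1, control replicate 2, TL3d replicate 1 or TL3d replicate 2 was left out, with adjusted p up to 0.133, 0.0964 and 0.106. The share of all genes tested that was called at TL3d fell with them, from 17.6% to 3.25%, 2.46%, 2.97% and 2.37%. The PLAU call was also lost without TL3h replicate 1 (adjusted p = 0.0603), TL3h replicate 2 (0.0537), TL3h replicate 3 (0.0617), TL3d replicate 3 (0.0507) or TL14d replicate 3 (0.0545), although the log2 fold change of PLAU stayed between 2.17 and 3.09 with any 1 library left out. With all libraries and a replicate block in the fit, PLAU (2.56, adjusted p = 0.0622) and PLAT (3.62, adjusted p = 0.0506) lost their call at TL3d too.

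SERPINB2, plasminogen activator inhibitor 2, had a fold change at TL3h near those of PLAT and PLAUR. It was measured at 16.2, 13.3 and 35.5 CPM in the controls, at 1063, 1169.8 and 1339 CPM at TL3h, at 129.7, 127 and 42.0 CPM at TL3d, and at 20.9, 140.1 and 32.6 CPM at TL14d. The 3 TL3h libraries lay close together (1190.6 ± 139 CPM, SD, n = 3), far above every other library. SERPINB2 rose 54.9-fold at TL3h (95% interval 15.0 to 201, log2 fold change 5.78, SE 0.84, adjusted p = 0.000462). By TL3d it had fallen to 8.36% of its TL3h mean (log2 fold change against TL3h -3.58, SE 0.76, adjusted p = 0.00464). The TL3d libraries were still all above the controls, with a log2 fold change of 2.20 that missed the threshold (SE 0.72, adjusted p = 0.0592). That difference was called without TL3d replicate 3 (2.57, adjusted p = 0.0446), without TL14d replicate 1 (2.20, adjusted p = 0.0321), without TL14d replicate 2 (2.20, adjusted p = 0.0187), by DESeq2 (adjusted p = 0.00906), with the compared libraries alone (0.0468), without control replicate 3 and TL14d replicate 1 (0.0236) and without these and TL3d replicate 3 (0.0121), 7 of 20 alternatives in all.

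SERPINE2, protease nexin 1, showed levels of 17.4, 22.1 and 40.4 CPM in control libraries, 350.3, 292 and 148 CPM at TL3h, 94.7, 56.1 and 40.7 CPM at TL3d, and 15.2, 95.4 and 74.1 CPM at TL14d. The TL3h libraries were all above the rest, the lowest TL3d library was just above the highest control, and the TL14d libraries covered the control range and more. The rise at TL3h was 9.89-fold (log2 fold change 3.31, SE 0.67, adjusted p = 0.00279). At TL3d the log2 fold change was 1.26 (95% interval -0.12 to 2.64, adjusted p = 0.17), and at TL14d it was 1.21 (95% interval -0.17 to 2.59, adjusted p = 0.532). SERPINE2 fell from TL3h to TL3d by 2.05 on the log2 scale (SE 0.63, adjusted p = 0.0285). This call was lost without TL3h replicate 1 (-1.75, adjusted p = 0.0843), TL3h replicate 2 (-1.92, adjusted p = 0.0705), TL3d replicate 2 (-1.96, adjusted p = 0.0923) or TL3d replicate 3 (-1.80, adjusted p = 0.0867).

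F3, tissue factor, was the most abundant of these genes and had the lowest fold change at TL3h. It stood at 1862, 1713 and 1284 CPM in the control libraries, at 4058, 1799 and 5106 CPM at TL3h, at 1182, 1525 and 789 CPM at TL3d, and at 2142, 2872 and 1451 CPM at TL14d. TL3h replicates 1 and 3 were above every control, replicate 2 was inside the control range, and the ranges of TL3d and TL14d overlapped that of the controls. The log2 fold change at TL3h was 1.17 (SE 0.41, adjusted p = 0.0373), a 2.26-fold difference. This call was lost without control replicate 1 (1.28, adjusted p = 0.0684), control replicate 2 (1.21, adjusted p = 0.0851), control replicate 3 (0.97, adjusted p = 0.119), TL3h replicate 1 (1.04, adjusted p = 0.107), TL3h replicate 3 (0.80, adjusted p = 0.169) or TL3d replicate 1 (1.17, adjusted p = 0.0517). It was also lost with the compared libraries alone (1.17, adjusted p = 0.0543), without control replicate 3 and TL14d replicate 1 (adjusted p = 0.13), without these and TL3d replicate 3 (0.115), and when scaling used the library size alone (0.67, adjusted p = 0.211), a setting that moves the median of all genes at TL3h to -0.47.

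Against TL3h, F3 fell at TL3d by 1.65 on the log2 scale (SE 0.41, adjusted p = 0.0106), and every TL3d library was below every TL3h library. F3 differed from control by -0.48 at TL3d (95% interval -1.37 to 0.42, adjusted p = 0.419) and by 0.41 at TL14d (95% interval -0.48 to 1.305, adjusted p = 0.744). These intervals leave room for differences of more than 2-fold in 1 direction.

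TFPI, the inhibitor of the tissue factor complex, was measured at 5.27, 11.7 and 42.1 CPM in control conjunctiva, at 52.7, 115 and 68.2 CPM at TL3h, at 16.8, 32.5 and 61.9 CPM at TL3d, and at 8.81, 7.63 and 25.8 CPM at TL14d. Its TL3h libraries were all above the controls, of which replicate 3 was far above the other control libraries. The log2 fold change at TL3h was 1.99 (SE 0.79, 95% interval 0.23 to 3.76) and missed the threshold (adjusted p = 0.0636). Without control replicate 3 it was 3.16 (adjusted p = 0.00963). TFPI was lower at TL14d than at TL3h by 2.48 on the log2 scale (SE 0.81, adjusted p = 0.0299), a call that was lost without TL3h replicate 2 (-2.06, adjusted p = 0.0913), TL3h replicate 3 (-2.53, adjusted p = 0.0547), TL14d replicate 1 (-2.23, adjusted p = 0.0896) or TL14d replicate 2 (-2.18, adjusted p = 0.0895).

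THBD, thrombomodulin, stood at 8.92, 16.1 and 16.7 CPM in the control libraries, at 111, 251 and 80.7 CPM at TL3h, at 16.5, 17.9 and 23.7 CPM at TL3d, and at 14.9, 10.7 and 12.8 CPM at TL14d. The rise was seen in all 3 TL3h libraries, and the ranges of TL3d and TL14d overlapped that of the controls. THBD rose 10.6-fold at TL3h (log2 fold change 3.41, SE 0.43, adjusted p = 0.000217), and without TL3h replicate 2 the log2 fold change was 2.73. It fell from TL3h to TL3d by 2.93 (SE 0.42, adjusted p = 0.000547), and without TL3h replicate 2 the difference was -2.27. The log2 difference from control was 0.48 at TL3d (95% interval -0.40 to 1.35, adjusted p = 0.407) and -0.12 at TL14d (95% interval -0.997 to 0.755, adjusted p = 0.933). Its TL3d mean was 13.1% of its TL3h mean, and its control mean was 9.42% of it.

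**Figure D2:**
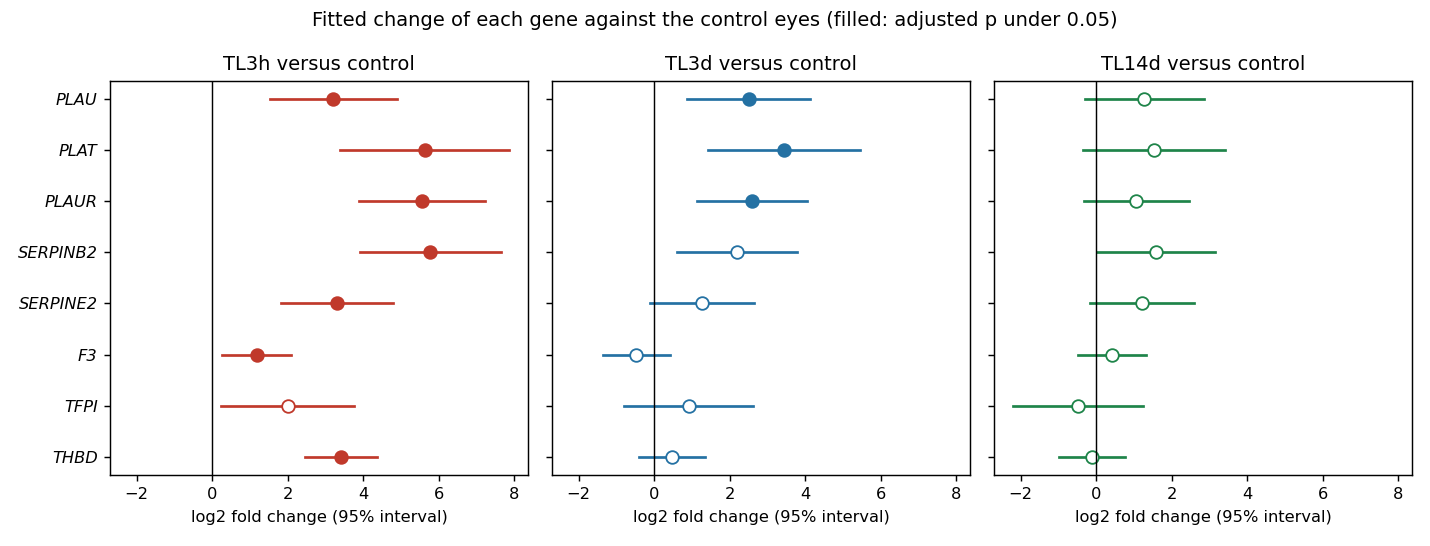
Fitted log2 fold change of each gene against control at TL3h, TL3d and TL14d, with lines for the 95% interval and filled points for an adjusted p under 0.05. At TL3h 7 of 8 points are filled and lie between 1.17 and 5.78, at TL3d the 3 filled points are those of PLAU, PLAT and PLAUR, and at TL14d 0 points are filled.

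Levels per transcript length allow the genes to be ordered within a group. The deposited FPKM values, which the authors had divided by transcript length and depth, are used for this, and these are not scaled by TMM. F3 was first in every group, at 916 ± 198 FPKM in control, 1493 ± 716 at TL3h, 665 ± 223 at TL3d and 1229 ± 418 at TL14d (SD, n = 3), and its libraries did not overlap those of the next gene in any group. Among all 20566 genes, F3 ranked 54 to 80 in the control libraries, 21 to 94 at TL3h, 65 to 152 at TL3d and 22 to 72 at TL14d. In control conjunctiva PLAU came next at 49.1 ± 27.3 FPKM, apart from the third gene in its range. The 6 others, from SERPINB2 (14.0 ± 7.22 FPKM) down through PLAT, SERPINE2, TFPI and PLAUR to THBD (5.66 ± 1.69 FPKM), overlapped each with its neighbour in the order.

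At TL3h the order was F3, SERPINB2 (563 ± 75.0 FPKM), PLAT (504 ± 164), PLAU (332 ± 99.8) and PLAUR (309.7 ± 120.2), then SERPINE2 (80.5 ± 31.0), THBD (43.0 ± 25.6) and TFPI (28.0 ± 10.9). SERPINB2, PLAT and PLAU each overlapped the next gene, and a gap without overlap lay between PLAUR and SERPINE2. In the controls SERPINB2 had ranked between 3060 and 6697 among all genes, and at TL3h it ranked between 100 and 139. PLAUR moved from ranks between 4150 and 8900 to ranks between 172 and 344. At TL3d PLAU was second (285 ± 109 FPKM), followed by PLAT (154 ± 101), and SERPINB2 (66.3 ± 34.1) came after PLAT.

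**Figure D3:**
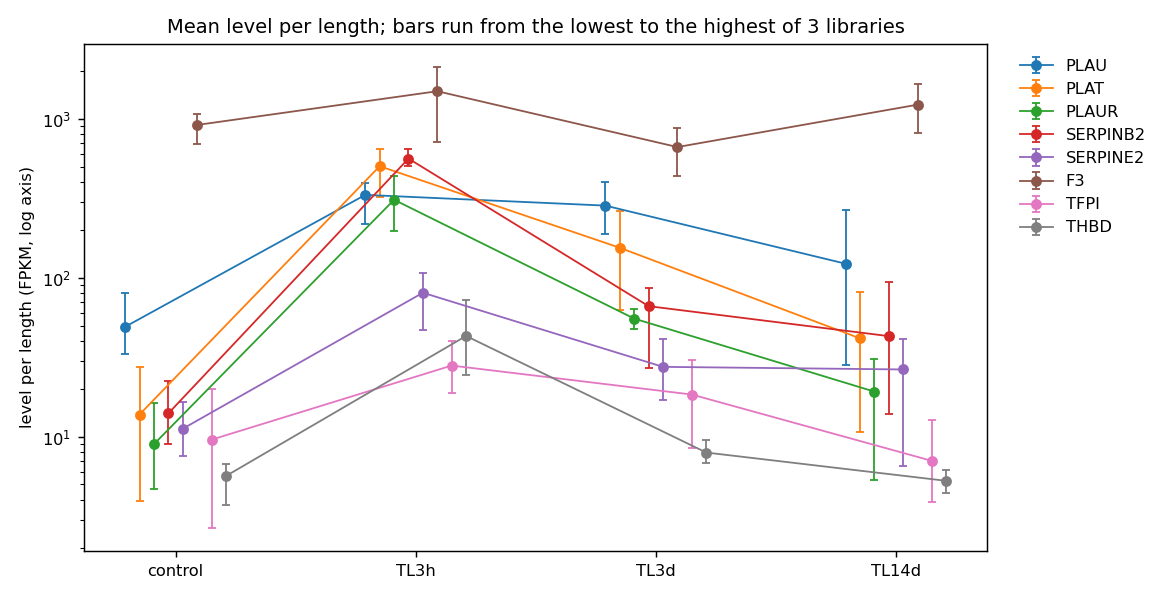
Mean level per length of the 8 genes in each group (FPKM, log axis), with bars from the lowest to the highest of 3 libraries. F3 lies on top in all 4 groups, and SERPINB2, PLAT, PLAU and PLAUR lie between 197 and 647 FPKM in the TL3h libraries.

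Ratios of FPKM within each library show the balance between the genes. PLAU exceeded PLAT by 2.92 to 8.60 times in the control libraries, whereas at TL3h the ratio of PLAU to PLAT was 0.61 to 0.72, so PLAT was the higher of the pair in all 3 libraries. The ratio was 1.53 to 3.00 at TL3d and 2.31 to 3.24 at TL14d. The TL3h ratios were below those of every other library. The ratios are given as a description, and differences between groups were not tested.

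Tissue factor was set against urokinase and against its own inhibitor in the same way. F3 was 8.59 to 31.7 times PLAU per length in control libraries, 3.28 to 5.47 times at TL3h, 1.69 to 3.34 times at TL3d and 6.22 to 43.2 times at TL14d. The ratios at TL3h and TL3d were below those of every control and TL14d library. F3 was 34.5 to 400.2 times TFPI per length in control, 17.8 to 87.2 times at TL3h, 14.4 to 79.9 times at TL3d and 63.6 to 426 times at TL14d, and these ranges overlapped between all groups.

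**Figure D4:**
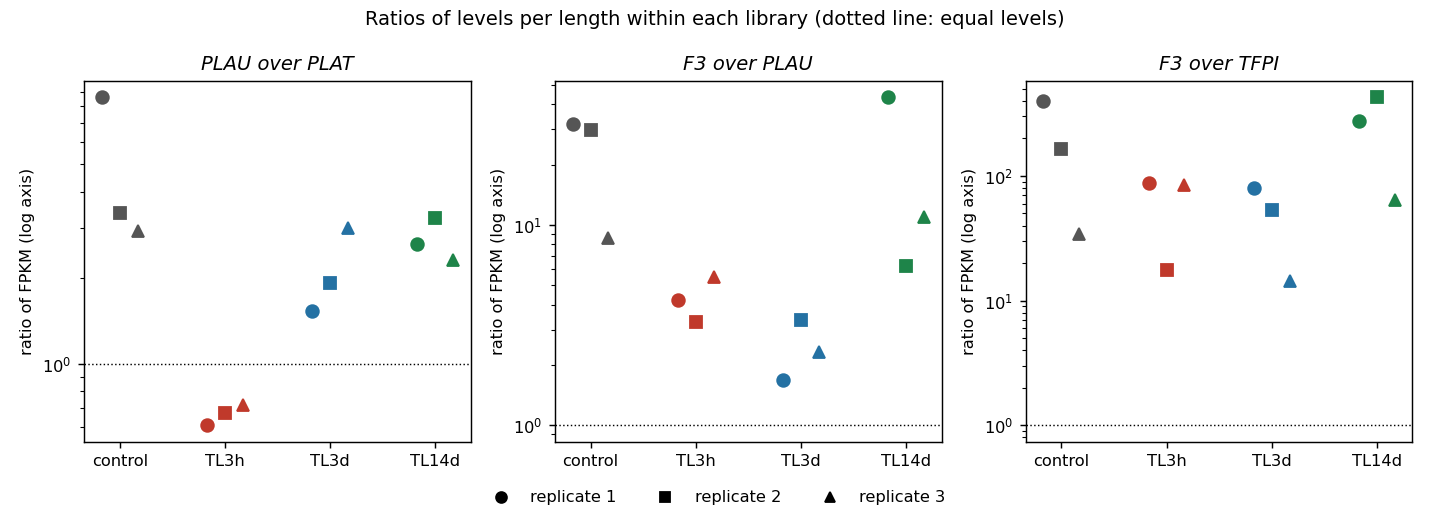
Ratio of FPKM within each library for PLAU over PLAT, F3 over PLAU and F3 over TFPI (log axis, dotted line at equal levels). PLAU is below PLAT in all 3 TL3h libraries and above it in the other 9, F3 over PLAU is lower at TL3h and TL3d than in every control library, and F3 is 14.4 to 426 times TFPI over the 12 libraries.

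Taking the time points against each other, 5 of the 8 genes were lower at TL3d than at TL3h (SERPINE2, SERPINB2, PLAUR, F3 and THBD), where 19% of all genes tested were called lower. At TL14d 6 of 8 were lower than at TL3h (SERPINE2, SERPINB2, PLAUR, PLAT, TFPI and THBD), against 22.3% of all genes tested. The SERPINE2 call at TL14d against TL3h (-2.10, adjusted p = 0.0217) was lost without TL3h replicate 1 (-1.80, adjusted p = 0.0673), without TL3h replicate 2 (-1.98, adjusted p = 0.0558) and with the compared libraries alone (-2.01, adjusted p = 0.0603). At TL14d against TL3h, SERPINB2 moved from -4.21 to -5.47 and PLAT from -4.09 to -5.02 without TL14d replicate 2, TFPI from -2.48 to -3.25 without TL14d replicate 3, and THBD from -3.53 to -2.86 without TL3h replicate 2. With scaling by library size alone, 4 of the 8 genes were called lower at TL3d than at TL3h (SERPINE2 lost its call) and 6 at TL14d, while the median of all genes moved to 0.43 and 0.49 and the higher direction held 80.5% and 77.6% of the calls over all genes, against 49.2% and 50.7%. PLAU missed the threshold in that comparison, with a log2 fold change of -1.93 (SE 0.72, adjusted p = 0.0503), and was called by DESeq2 (-1.87, adjusted p = 0.0175), without control replicate 3 (adjusted p = 0.0481) or without TL14d replicate 2 (-3.16, adjusted p = 0.00416). F3 at TL14d differed from TL3h by -0.76 (95% interval -1.66 to 0.13, adjusted p = 0.148), and was called without TL3h replicate 2 (-1.05, adjusted p = 0.0444). Between TL3d and TL14d, 0 of 8 were called, 1 of 8 (PLAUR) had an unadjusted p under 0.05, against 22.6% of all genes tested, and 2.24% of all genes tested were called. In the test of all 4 groups together 7 of the 8 genes passed, TFPI being the exception (adjusted p = 0.0654), against 52.4% of all genes tested.

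No gene of the 8 passed against control at TL14d in edgeR's test or with DESeq2, and 1 had an unadjusted p under 0.05 (SERPINB2, log2 fold change 1.57, adjusted p = 0.48, and 0.30 without TL14d replicate 2), where 10.4% of all genes tested had one. The TL14d libraries varied widely among themselves. TL14d replicate 2 was the highest of its group in 6 of the 8 genes and above the control range in 6, replicate 3 was above it in 3 and within it in 5, and replicate 1 was above it in 1, within it in 5 and below it in 2. Without control replicate 3 and TL14d replicate 1, the log2 fold change at TL14d was 2.09 for SERPINE2 (adjusted p = 0.0431) and 2.29 for PLAUR (adjusted p = 0.0193), and that of TFPI was 0.97 (adjusted p = 0.456) against -0.49 with all libraries.

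Genes of other roles in the same pathway were followed through 3 lists with 57 genes in all, of which 48 had a row and 31 were tested. At TL3h 14 of the 31 rose and 1 fell (23.2% and 22.2% of all genes tested), at TL3d 6 rose (10.6%), and at TL14d 0 were called, with 9 of 31 at an unadjusted p under 0.05 (10.4% of all genes tested) and 2 called by DESeq2 (2.39% of all genes tested). With any 1 library left out, the number called at TL3d ran from 1 (without control replicate 2, where 2.46% of all genes tested were called) to 13 (without TL14d replicate 1, 25% of all genes tested), and at TL14d it reached 4 (without TL14d replicate 1, 4.74% of all genes tested). In the list of plasminogen activation partners (21 listed, 14 tested), 7 rose at TL3h and 5 at TL3d (23.2% and 10.6% of all genes tested), and the median log2 fold change was 1.12 and 1.03. THBS1, thrombospondin 1, rose at TL3h by 7.31 (SE 1.86, adjusted p = 0.00941) and missed the threshold at TL3d (5.56, SE 1.72, adjusted p = 0.05). MMP3, a protease that plasmin can activate, went from 0 or 1 counts in each control library to 3.07 to 6.47 CPM at TL3h (adjusted p = 0.00449) and 10.05 to 41.9 CPM at TL3d (adjusted p = 0.0114). S100A10, which with annexin A2 binds plasminogen at the cell surface, rose at TL3d by 1.48 (SE 0.31, adjusted p = 0.0169).

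In the list of clotting factors and fibrin genes (18 listed, 8 tested), 3 rose and 1 fell at TL3h (23.2% and 22.2% of all genes tested), and 1 rose at TL3d (10.6%). F2, prothrombin, went from a mean of 0.16 CPM in control to 16.5 CPM at TL3h (log2 fold change 6.69, SE 0.83, adjusted p = 0.000205) and was at 0.74 CPM at TL3d. F5, factor V, rose at TL3h by 4.76 (SE 1.006, adjusted p = 0.00359) and at TL3d by 4.26 (SE 0.98, adjusted p = 0.0212). FGL2, a membrane prothrombinase, rose at TL3h by 2.76 (SE 0.61, adjusted p = 0.00468), and TGM2, a transglutaminase that can cross-link matrix proteins, fell by 1.78 on the log2 scale (SE 0.60, adjusted p = 0.0343). The median log2 fold change of this list was 0.93 at TL3h and -0.43 at TL3d.

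Of the thrombin receptors and anticoagulants (18 listed, 9 tested), 4 rose at TL3h (23.2% of all genes tested) and 0 were called at TL3d, where 3 of 9 had an unadjusted p under 0.05 (36.2% of all genes tested had one). PROCR, the endothelial protein C receptor that works beside thrombomodulin, rose at TL3h by 3.43 (SE 0.54, adjusted p = 0.000718). NOS3, the endothelial nitric oxide synthase, rose by 3.20 (SE 0.77, adjusted p = 0.00702), and F2RL1, the protease-activated receptor 2 through which the tissue factor complex can signal, rose by 0.88 (SE 0.29, adjusted p = 0.0308). The median log2 fold change of this list was 0.88 at TL3h and 0.57 at TL3d.

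Plasminogen and the fibrinogen chains, plasma proteins made by the liver, were at or near the limit of detection. PLG, plasminogen itself, had 1 count in 1 of the 12 libraries, FGA had 0 counts in all, and FGB and FGG had 5 counts each in total. A count of 0 allows a level of up to 0.07 to 0.12 CPM in these libraries, for counting error only. The 17 genes of the lists that had a row and were not tested reached at most 10 counts in any library.

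**Figure D5:**
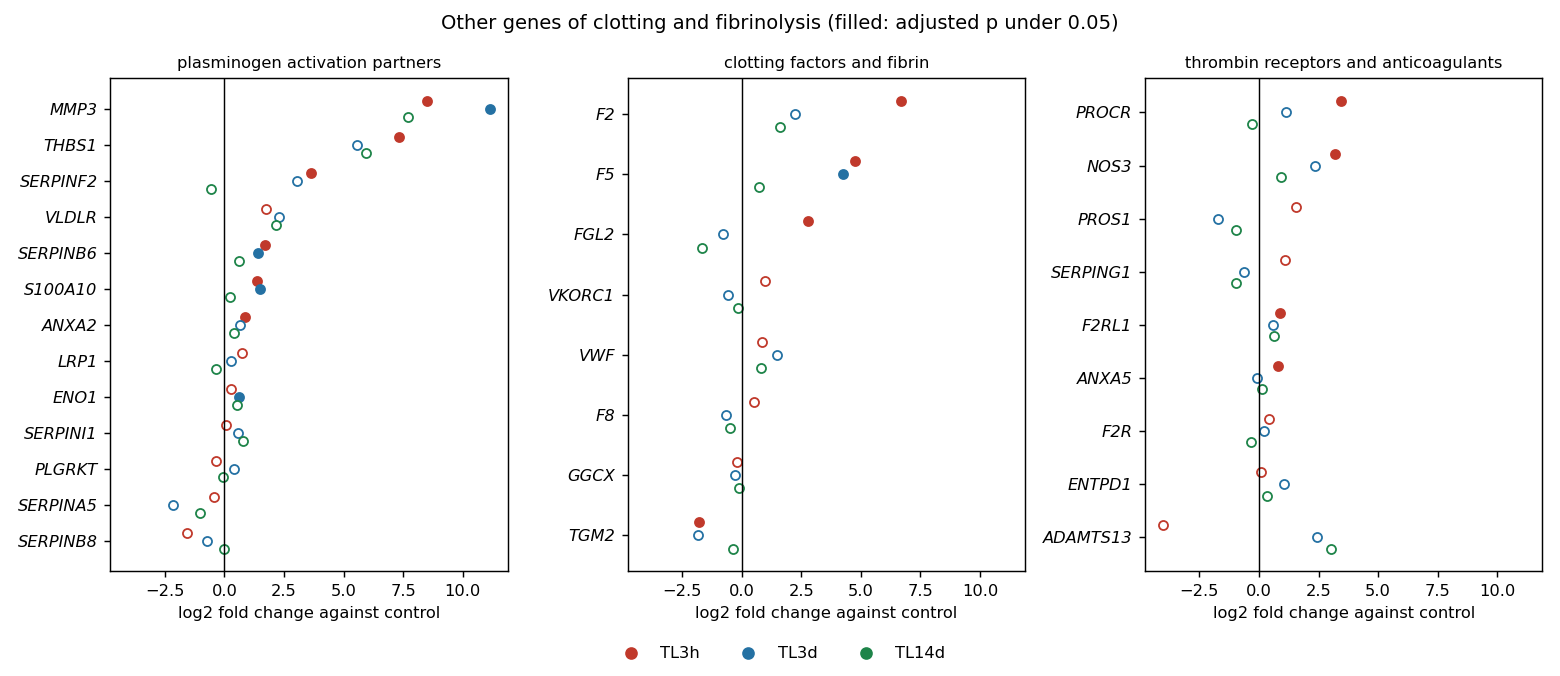
Fitted log2 fold change against control of the tested genes of the 3 lists with 1 left out, coloured by time point and filled where the adjusted p was under 0.05. Filled points lie to the right of 0 except that of TGM2 at TL3h, and those of MMP3 and SERPINF2, with 0 to 3 counts in each control library, depend on the prior count of the fit.

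Neutrophil markers were higher at TL3h as a list, and those of other cell types were called in part or not at all. The summed neutrophil markers went from 3.49 to 82.4 CPM in control to 1049 to 2792 CPM at TL3h, 126 to 739 CPM at TL3d and 3.33 to 114 CPM at TL14d, with 6 of 6 tested markers called higher at TL3h (23.2% of all genes tested) and 1 of 6 at TL3d (10.6%). Summed monocyte and macrophage markers were at 72.7 to 606 CPM in control, 648 to 988 CPM at TL3h, 1296 to 2068 CPM at TL3d and 91.8 to 451 CPM at TL14d, with 2 of 7 called higher at TL3h and 4 of 7 at TL3d, read against the same shares. Endothelial markers summed to 79.9 to 262 CPM in control and 600.3 to 1193 CPM at TL3h, 291 to 389 CPM at TL3d and 67.3 to 194 CPM at TL14d. Only PECAM1 (log2 fold change 3.68, adjusted p = 0.0109) and CDH5 (2.46, adjusted p = 0.0401) among the 8 endothelial markers were called at TL3h, while KDR (-0.82, adjusted p = 0.396) and TEK (-0.35, adjusted p = 0.733) were not. These 2 of 8 are near the 23.2% of all genes tested that were called higher. Against TL3h, 1 of 8 was called higher at TL3d and 3 of 8 lower at TL14d (18.4% and 22.3% of all genes tested). TL3h replicate 2 had the highest endothelial sum and also the highest THBD and TFPI levels of its group, and the lowest levels of PLAU, PLAT, PLAUR and F3. Endothelium was not singled out in that library. It also had the highest TL3h sums of neutrophil (2792 CPM), monocyte and macrophage (988), fibroblast (88698), smooth muscle and pericyte (397) and platelet markers (39.5). Its sums of epithelial (6578 CPM) and goblet cell markers (102) were the lowest of TL3h. Fibroblast markers summed to 8766 to 53820 CPM in control, 70134 to 88698 CPM at TL3h, 1190 to 45779 CPM at TL3d and 7508 to 39755 CPM at TL14d. Of 7, 0 were called against control, and 2 were called lower than at TL3h at TL3d and at TL14d (19% and 22.3% of all genes tested). Platelet markers summed to 5.53 to 8.63 CPM in control and 20.2 to 39.5 CPM at TL3h, 30.7 to 58.0 CPM at TL3d and 5.38 to 293 CPM at TL14d, with 1 of 2 called higher at TL3h and at TL3d (23.2% and 10.6% of all genes tested). Goblet cell markers summed to 486 to 1664 CPM in control, 102 to 467 CPM at TL3h, 428 to 1157 CPM at TL3d and 1109.9 to 1827 CPM at TL14d, with 1 of 2 called lower at TL3h (22.2% of all genes tested). The part of these cell types in the changes of the 8 genes was not tested.

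The 8 genes had 15 transcripts in the transcript table, of which 14 were tested. Against control, 9 were called at TL3h, 1 at TL3d and 0 at TL14d, where 28.3%, 5.13% and 0% of all transcripts tested were called. A single transcript held nearly all counts of each gene with several transcripts except TFPI. For PLAT, the 2561-base transcript held 94.6 to 98.7% of the counts over the 12 libraries, and for SERPINB2 the 1528-base transcript held at least 91.1%. TFPI was divided between a 1057-base transcript with 38.8 to 53.1% and a 1614-base transcript with 46.9 to 61.2%, and both had a similar fitted change at TL3h (1.94 and 1.90, adjusted p = 0.101 and 0.102). The 2249-base transcript of SERPINE2 held 2.33 to 4.02% in control and 4.45 to 6.33% at TL3h, and both SERPINE2 transcripts were called at TL3h. The call of the 2249-base transcript (adjusted p = 0.0316) was lost under 6 of 18 alternatives, which were a replicate block and leaving out any control library, TL3h replicate 1 or TL3h replicate 2, with adjusted p up to 0.105. The single F3 transcript was not called at TL3h over the table of transcripts (1.12, SE 0.40, adjusted p = 0.0617).

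On the OryCun2.0 build, SERPINE2 (gene ID 100338234) lies on chromosome 7 from 165490573 to 165552707 on the minus strand, and TFPI (100009401) on the same chromosome and strand from 127829920 to 127896501. SERPINB2 (100216509) is on chromosome 9 from 104093412 to 104107754 on the plus strand, F3 (100009127) on chromosome 13 from 70004288 to 70014170 on the plus strand, THBD (100008887) on chromosome 4 from 13826259 to 13829697 on the plus strand, and PLAU (100008633) on chromosome 18 from 13595218 to 13601355 on the minus strand. PLAUR (100101584, minus strand) and PLAT (100009556, plus strand) are on unplaced sequence. No other gene of the table overlaps any of the 8. PLAT had fractional counts in all 12 libraries, F3 in 8, and the others in 1 to 5, so some reads entered these counts in parts, and how the parts were set is not stated in the sources used here.

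SERPINB2 lies in a row of clade B serpins, with 9 such genes within 1 Mb, counting itself. Of the 8 others, 3 were called higher at TL3h (23.2% of all genes tested), 1 at TL3d (10.6%) and 0 at TL14d (0%). SERPINB5 (maspin) rose at TL3h by 2.50 (SE 0.48, adjusted p = 0.00208). SERPINB12 went from a mean of 0.05 to 0.73 CPM and LOC100339150, annotated as a serpin B4, from 0.12 to 7.09 CPM. SERPINB10, 4962 bases from SERPINB2, had a log2 fold change of 0.76 at TL3h (adjusted p = 0.155), and SERPINB7 on the other side, at 37239 bases, had -0.05 (adjusted p = 0.966). Next to THBD, at 22119 bases, lies CD93, a gene of endothelium and myeloid cells, which rose at TL3h by 2.14 (SE 0.76, adjusted p = 0.0422). Neighbours of the other genes went in both directions at TL3h, as did all genes tested (23.2% called higher, 22.2% lower). Beside PLAU, VCL rose by 1.36 (adjusted p = 0.00955) and CAMK2G fell by 1.41 (adjusted p = 0.000236). CALCRL beside TFPI was not called (0.18, adjusted p = 0.851).

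Genes with a pattern most like each of the 8 were found by Pearson's r of log2 levels over the 12 libraries, and these values are a description, since the libraries share the groups. SERPINB2 was most like ABCF2 (r = 0.995) and RRP12 (0.994), THBD most like ZDBF2 (0.990) and LOC103349652 (0.977), and PLAT most like MMP10 (0.987) and DUSP7 (0.984). PLAUR was most like SEC61A1 (0.987) and PTGS2 (0.986), PLAU most like DCUN1D3 (0.986) and MNDA (0.981), and TFPI most like QPCT (0.973) and CD302 (0.969). SERPINE2 was most like ODC1 (0.962) and ARID5A (0.961). F3 had the lowest of these values, with RNF20 (0.910) and LMO7 (0.900).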

How the data were processed

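RNA of 12 conjunctiva libraries was made into stranded mRNA libraries and sequenced as paired ends. Per the labels and methods, the authors mapped the reads with STAR 2.6.0c to OryCun2.0 and made the values per gene and transcript with GeneData Profiler Genome. The authors deposited estimated counts, not divided by library size and with 23.4% fractional values in the gene table. The authors also deposited FPKM values, divided by transcript length and depth, which were used here only for order and ratios. Groups were taken from the sample titles, and no 2 libraries of a group agreed within sampling noise.

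Estimated counts were rounded, filtered (filterByExpr, minimum count of 10 and total of 15), scaled by TMM and tested in edgeR 4.0.16 (R 4.3.3) with its quasi-likelihood test, all 4 groups in 1 fit without a replicate block, and a prior count of 0.125. P-values were adjusted by Benjamini-Hochberg over 14835 genes with a threshold of 0.05. The SE was the fold change over the root of F, and 95% intervals used the total degrees of freedom of the test, residual plus prior. The script was tested on simulated data. Alternatives were RLE factors, library size alone, DESeq2 1.42.0, no filter, the compared libraries alone, a replicate block and each library left out in turn, and, added after seeing the data, the libraries that stood apart left out (control replicate 3 and TL14d replicate 1, then TL3d replicate 3 too). The text names all listed genes with a row, for each pathway list up to 3 called genes a direction with the largest change beside PLG and the fibrinogen genes, and the 2 genes most like each (on log2 of CPM plus 0.5). Of the genes this rule names, 1 is counted in its list and not reported here. PECAM1, CDH5, KDR and TEK, the serpins beside SERPINB2, and CD93, VCL, CAMK2G and CALCRL were named after their values were seen. The genes and lists were chosen with earlier results of these data known. Counts of 3 or less were taken as the floor, which covers counting error only. Sequences were not used here.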

Additional observations from a re-analysis of the deposited data

Results flagged for a closer look

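The log2 change after surgery differed between time points, by a test of the difference itself, in 11 cases among the 8 genes. From TL3h to TL3d the difference was -2.05 for SERPINE2, -3.58 for SERPINB2, -2.96 for PLAUR, -1.65 for F3 and -2.93 for THBD. From TL3h to TL14d it was -2.10 for SERPINE2, -4.21 for SERPINB2, -4.49 for PLAUR, -4.09 for PLAT, -2.48 for TFPI and -3.53 for THBD. With 3 libraries a group, single libraries were not tested as outliers.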

How the results depend on the processing

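Of 960 values of the 8 genes under alternatives, 881 kept their direction and their side of the threshold, 41 lost the call, 30 gained it and 8 reversed. At TL3h SERPINE2, SERPINB2, PLAU, PLAUR, PLAT and THBD kept their call under all 20 alternatives, F3 lost it under 10, and TFPI gained it under 5 (DESeq2, adjusted p = 0.0226; a replicate block, 0.00542; without control replicate 3, 0.00963; without control replicate 3 and TL14d replicate 1, 0.0101; without these and TL3d replicate 3, 0.00736). With 1 library left out in turn, the genes called among the 8 numbered 6 to 7 at TL3h, 0 to 4 at TL3d, 0 at TL14d, 4 to 6 for TL3d against TL3h and 5 to 7 for TL14d against TL3h, the pathway genes called 11 to 17 at TL3h, 1 to 13 at TL3d, 0 to 4 at TL14d, 4 to 9 for TL3d against TL3h, 8 to 14 for TL14d against TL3h and 0 to 1 for TL14d against TL3d, and the transcripts called 7 to 11 at TL3h and 0 to 5 at TL3d. In the same fits, the share of all genes tested that was called moved too. It ran from 34.9% to 48.1% at TL3h, from 2.37% to 25% at TL3d and from 0% to 4.74% at TL14d. Between time points it ran from 26.1% to 41.2% for TL3d against TL3h and from 36.2% to 45% for TL14d against TL3h. For TL14d against TL3d it ran from 0% to 3.87%. The cause of these changes was not tested beyond the fewer libraries in each fit.

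With a replicate block, 1 of the 8 genes, 10 pathway genes and 0 transcripts were called at TL3d (18.3% of all genes tested). Of 18 same-numbered pairs of libraries, 8 had a correlation of deviations over 0.1 (range -0.15 to 0.52). Some of these pairs join operated groups, which are separate rabbits. These values therefore cannot tell whether the numbers pair control and operated libraries. DESeq2 called 13 pathway genes at TL3d, 2 at TL14d and 4 for TL14d against TL3d (27.9%, 2.39% and 11.8% of all genes tested), and library size alone called 2 transcripts at TL3d. Library size alone also left 25.0% of the calls at TL3h over all genes in the higher direction, against 51.0%. Without control replicate 3 and TL14d replicate 1, the calls at TL3d were 5 of the 8 genes, 12 pathway genes and 7 transcripts, those at TL14d 2, 6 and 2, and 1 pathway gene was called for TL14d against TL3d (25.6%, 6.64% and 2.13% of all genes tested). Without these and TL3d replicate 3, the calls at TL3d were 5 of the 8 genes, 13 pathway genes and 7 transcripts, those at TL14d 4, 7 and 2 (25.9% and 8.17% of all genes tested), and 23 pathway genes were called at TL3h, 13 for TL3d against TL3h and 2 for TL14d against TL3d (52.6%, 42.1% and 2.4% of all genes tested).

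Values that reversed had no call. TFPI at TL14d ranged from -1.26 to 0.72 with 1 library left out (highest without control replicate 3) and was 0.97 without both control replicate 3 and TL14d replicate 1 and 0.96 without these and TL3d replicate 3, its 1057-base transcript from -0.997 to 0.885, 1.11 and 1.15, and its 1614-base transcript from -1.41 to 0.60, 0.86 and 0.90. THBD at TL14d ranged from -0.36 to 0.024 and its transcript from -0.36 to 0.016 (both highest without control replicate 3). SERPINE2 for TL14d against TL3d ranged from -0.52 to 0.41 (0.35 without TL3d replicate 1, 0.41 without TL14d replicate 1) and was 0.41 without control replicate 3 and TL14d replicate 1 and 0.17 without these and TL3d replicate 3, and the 2570-base PLAT transcript at TL14d from -0.29 (without TL14d replicate 2) to 1.85. Over all genes, the calls with 1 library left out ran from 5280 to 7271 at TL3h, from 359 to 3778 at TL3d and from 0 to 716 at TL14d, from 3954 to 6231 for TL3d against TL3h, from 5464 to 6798 for TL14d against TL3h and from 0 to 584 for TL14d against TL3d.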
